A study of Mus musculus with 2 samples.

Results

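The genes described here encode eukaryotic translation initiation factors. They were taken as all genes whose single annotated symbol begins with Eif1, Eif2, Eif3, Eif4, Eif5 or Eif6, leaving out the Eif2ak kinases and the sex-linked Eif2s3x and Eif2s3y. The rule found 41 of the 18193 genes with a single symbol on the array, measured by 115 probe sets. Not among the 41 were Eif1, Eif2s1, Eif3g, Eif4g1 and the Eif3j genes, so some complexes are incomplete here. The rule itself uses no signal, although this set was proposed with earlier results of these data known. RNA came from mouse embryo fibroblasts (MEFs) of day 12.5 embryos at passage 2, grown with fetal bovine serum, with 1 array for wild type and 1 for Ebp1 knock out MEFs. The knock out cells carry a retroviral gene trap in intron 2 of Pa2g4, the gene of ErbB3 binding protein-1 (Ebp1), on a background mixed from C57BL/6 and the strain of the embryonic stem cells. How many embryos were pooled is not stated in those sources. With 1 array per genotype no value has a replicate error, no test was run, and a difference between the arrays cannot be told apart from a difference between 2 cultures.

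Translation of most mRNAs begins when eIF4E binds the cap and recruits the helicase eIF4A through the scaffold eIF4G. The small ribosomal subunit, loaded with eIF1, eIF1A, eIF3, eIF5 and the complex of eIF2, GTP and initiator tRNA, then scans to the start codon. eIF5 triggers GTP hydrolysis, eIF5B joins the large subunit, eIF2B recharges eIF2 with GTP, and eIF6 keeps free large subunits apart from small ones. Growth factor signals act on this step through the eIF4E-binding proteins, and stress acts through phosphorylation of eIF2. Ebp1 is itself known as an RNA-binding protein found on ribosomes, so the mRNA levels of these factors in the knock out cells are of interest.

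The signal of Pa2g4 was 1835 intensity units without the gene trap and 1178 with it. Its log2 ratio, with the wild type as the base here and throughout, was -0.64, and all 5 of its probe sets were lower, from -0.90 to -0.33. The array signal of the targeted gene was thus reduced and not lost, with 2 probe sets still above 1000 on the knock out array. By RT-PCR and Western blot, however, the study detected neither Ebp1 mRNA nor protein in knock out MEFs. Whether these probe sets read intact Pa2g4 mRNA was not tested. All 10 fibroblast markers reached 500 on at least 1 array, their summed signal being 64754 for the wild type against 66842 for the knock out array. They went both ways, with Pdgfrb (-0.67), Thy1 (-0.58) and Postn (-0.47) at the low end and S100a4 (0.39) at the high end. No endothelial, blood or neural marker reached 500. Of 7 epithelial markers 1 did so, Epcam, and their summed signal was 490.2 and 1920.4, with 4 of 7 under 100 on both arrays. Most of that rise came from 1 probe set of Epcam (174 and 1350.5), while its other one gave 5.81 and 4.07. Each of the 7 was nevertheless higher on its brightest probe set, among them Cldn4 (36.2 and 121, 1.74) and Krt19 (88.0 and 197, 1.17). Dimmer probe sets of Cldn3 went both ways. The 9 hybridization spike-ins had a median log2 ratio of 0.39, and the 3' to 5' ratio was 1.29 and 1.21 for Actb and 0.949 and 0.800 for Gapdh. The part of these differences in the results below was not tested.

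Most initiation factor genes were bright on both arrays and, like most genes that reached 500, differed little between the genotypes. Of the 41 genes, 36 reached 500 intensity units on at least 1 array, the minimum used in the study, and 3 of these did so on 1 array only. No gene was over 2-fold higher or lower, against 1.81% of all 5014 genes that reached 500 (0.758% higher and 1.06% lower). At 1.5-fold 1 gene was higher, Eif4e, and none was lower, against 2.99% and 5.11% of all genes. The log2 ratios ran from -0.40 for Eif2d to 0.62 for Eif4e, with a median of 0.061 and a standard deviation across genes of 0.24. The median of all genes was -0.053, with a standard deviation of 0.38 that includes ratios from -7.56 to 5.25. At mean signals of 1000 to 3000 the standard deviation was 0.29 for initiation factor genes and 0.30 for all genes. In bulk RNA a lower signal from fewer expressing cells and from less RNA per cell look the same.

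**Figure D1:**
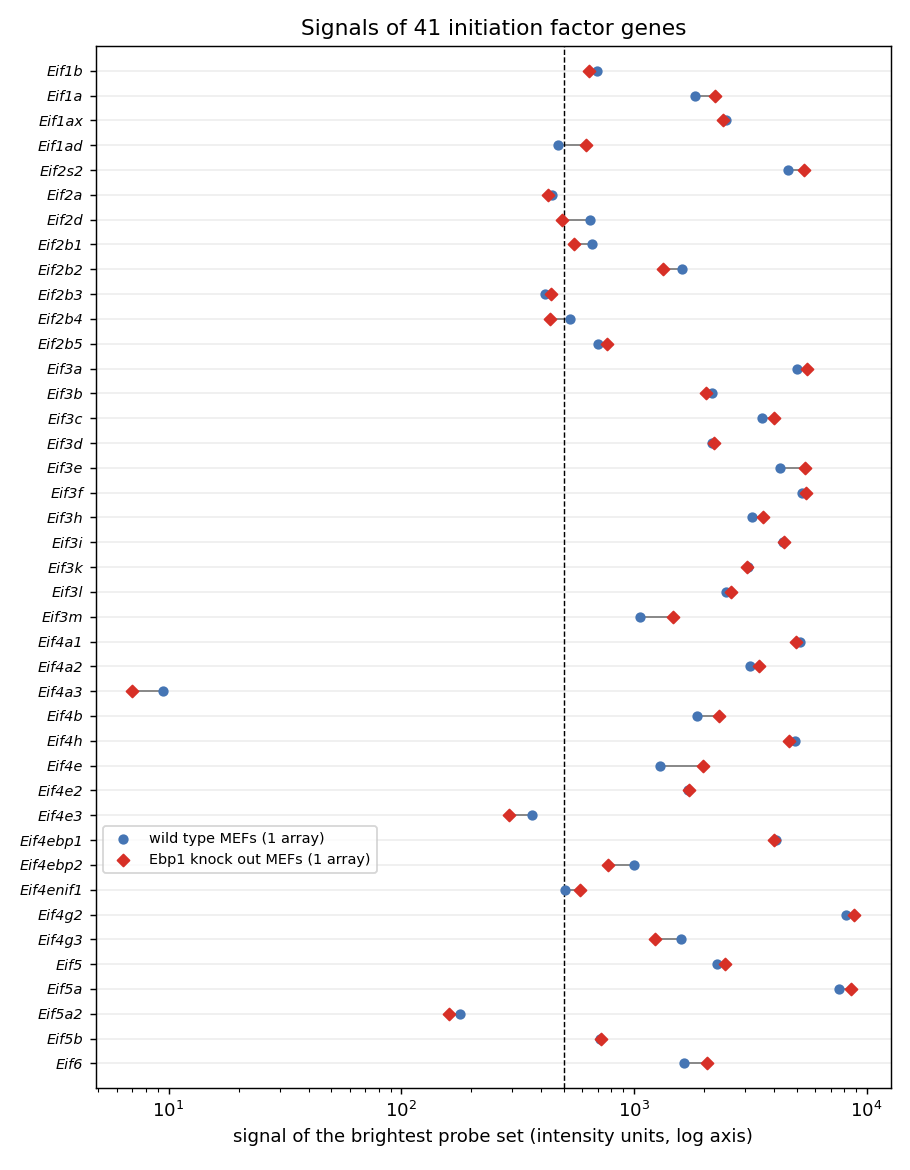
Signals of the 41 initiation factor genes on the wild type array (blue circles) and the Ebp1 knock out array (red diamonds), each from the brightest probe set, in intensity units on a log axis. The dashed line marks 500, which 36 genes reached on at least 1 array, and no gene that reached it differs by 2-fold.

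Of the 36 genes 23 (63.9%) had a higher signal in knock out MEFs, against 42.2% of all genes. That sign depends on how the arrays are scaled. With the arrays centred on their median signals the count was 17 (47.2%, against 27.2% of all genes). After scaling to the spike-ins it was 2 of 35 (5.71%, against 5.35% of all genes). The place of the 36 genes relative to other genes moved less. Of them, 26 lay above the median of all genes, for which the background is 50%. Under the 5 other scalings 22 to 27 did so. Signal level moved with this count. Among genes with a mean signal over 3000, 10 of 14 initiation factor genes (71.4%) were above 0, near the 63.4% of all genes at that level. Between 1000 and 3000 it was 9 of 13, against 42.6%, and under 1000 it was 4 of 9, against 38.2%. The median log2 ratio over 3000 was 0.12 for initiation factor genes and 0.067 for all genes, between 1000 and 3000 it was 0.063 and -0.040, and under 1000 it was -0.10 and -0.099.

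**Figure D2:**
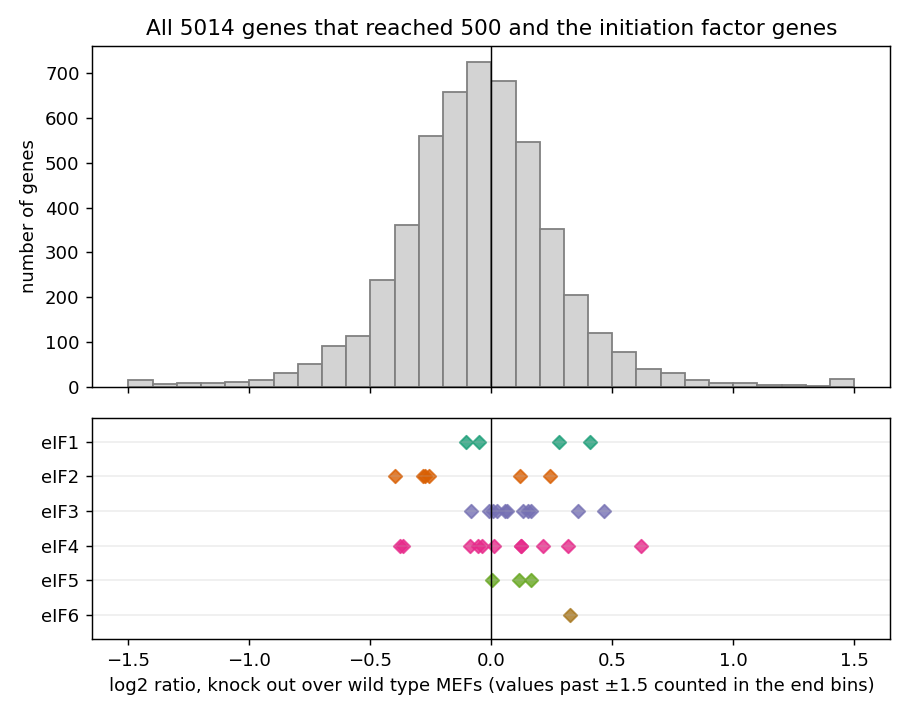
Log2 ratios (knock out over wild type MEFs) for all 5014 genes that reached 500 (grey histogram) and for the 36 initiation factor genes, by factor number (diamonds). The 36 genes lie between -0.40 and 0.62, inside the body of the histogram.

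The factors eIF1 and eIF1A hold the scanning ribosome open until the start codon is found. The 4 genes whose symbols begin with Eif1 went both ways, and Eif1 itself was not among them. Eif1b, a close relative of eIF1, went from 692 in wild type to 644 in knock out MEFs (log2 ratio -0.10). Eif1ax, the X-linked gene of eIF1A, was 2499.6 and 2413 (-0.051), while Eif1a was 1832 and 2223 (0.28). Eif1ad, which encodes a protein with an eIF1A-like domain, gave 471 and 625 (0.41) with its brightest probe set but 524 and 468 (-0.16) with the other, so its direction is not settled. Probe sets assigned to Eif1a and other symbols together were not used.

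The eIF2 group had the lowest median of the 6 factor numbers, -0.27 over its 6 genes that reached 500. The eIF6 group held only 1 such gene and the eIF5 group 3. The eIF2 median stayed lowest under each of 11 settings for which group medians were computed, the deposited scaling among them. Scalings that shift all ratios alike could hardly change this order. Averaging the probe sets that reached 500 moved the eIF2 median to -0.074, against 0.0355 for the eIF1 group, the next lowest. Eif2s2, which encodes the beta subunit of eIF2, was higher (4573 and 5407, log2 ratio 0.24), and 4 of its 5 probe sets that reached 500 lay above 0, from -0.098 to 0.48. The 4 genes of the group below 0 were Eif2d and 3 genes of eIF2B, the exchange factor. Eif2b1 (662 and 553, -0.26), Eif2b2 (1614 and 1328, -0.28) and Eif2b4 (530.0 and 438, -0.27) encode the alpha, beta and delta subunits, and these 3 genes were lower under each scaling. All 3 probe sets of Eif2b2 were lower, from -0.53 to -0.22. Eif2b5, which encodes the catalytic epsilon subunit, was 704 and 765 (0.12). Eif2b3, of the gamma subunit, stayed under 500 at 415 and 441 (0.090). Of the 4 subunit genes that reached 500, 3 were thus lower, against 57.8% of all genes. Eif2b1, Eif2b4 and Eif2b5 had mean signals under 1000, where 1697 of 2746 genes were below 0.

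Eif2d, whose protein can deliver initiator tRNA outside the eIF2 route, gave 645 and 489 (-0.40) with the brightest of its probe sets. The other probe sets ran from -1.60 to 0.62, and the one at 0.62 also reached 500 (365 and 562), so this lowest ratio of all 36 genes rests on the choice of probe set. Eif2a, which encodes a factor apart from the eIF2 trimer, was 446 and 429 (-0.054).

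The 11 genes among the members that encode subunits of eIF3, the large scaffold that binds the small ribosomal subunit, all reached 500. Their median log2 ratio was 0.063, with a standard deviation of 0.16, and 9 genes were above 0 and 10 above the median of all genes. Of the 7 with a mean signal over 3000, 6 were above 0, where 63.4% of all genes were. The standard deviation at that level was 0.12 for these 7 and 0.20 for all genes. Among the core subunits, Eif3a was 5034 and 5517 (0.13), Eif3b was 2165 and 2044 (-0.083) and Eif3c was 3558 and 3982 (0.16). These differences were under 1.2-fold. Eif3e, which encodes a subunit at the mRNA exit side, was 4245 and 5436 (0.36), and a probe set of nearly the same brightness gave 4559 and 5059 (0.15). Another bright one gave 3734 and 3905 (0.065). Eif3m, of another subunit with a PCI domain, had the highest ratio of the group (1065 and 1470.5, 0.47). All 4 probe sets of Eif3a were above 0, and the other probe set of Eif3m was under 100 on both arrays. Eif3d, whose protein can bind the cap of selected mRNAs, was 2171 and 2209 (0.025). The remaining genes, Eif3f, Eif3h, Eif3i, Eif3k and Eif3l, had log2 ratios from -0.0092 to 0.15. The other probe set of Eif3i, also bright, gave 3834 and 3605 (-0.089). Eif3l also has a dimmer probe set, under 500 on both arrays, at 454 and 137 (-1.72).

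Probe sets of 1 gene often gave different ratios. Of 19 initiation factor genes with several probe sets that reached 500, 10 (52.6%) had probe sets on both sides of 0, against 44.6% of 1487 such genes in all, and the median span of log2 ratios within a gene was 0.39, against 0.32. The standard deviation within these 19 genes was 0.36, with dimmer probe sets included, and that between the brightest probe sets of the 36 genes was 0.24. Over all genes the order was the other way, 0.32 within and 0.38 between genes. Eif3a had the widest span, since a dimmer probe set gave 352 and 1003 (1.51), while the 2 brightest gave 0.13 and 0.22. Eif3c had 1 dimmer probe set at 880.3 and 1591 (0.85) and 2 others at -0.12 and -0.093. The brightest probe sets of Eif2b2, Eif4ebp1 and Eif4h have names that end in _x_at and those of Eif3m, Eif4g2 and Eif5a in _s_at, endings that Affymetrix gives to probe sets that can match more than a single transcript. The positions of the probe sets along the transcripts are not stated in the sources.

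**Figure D3:**
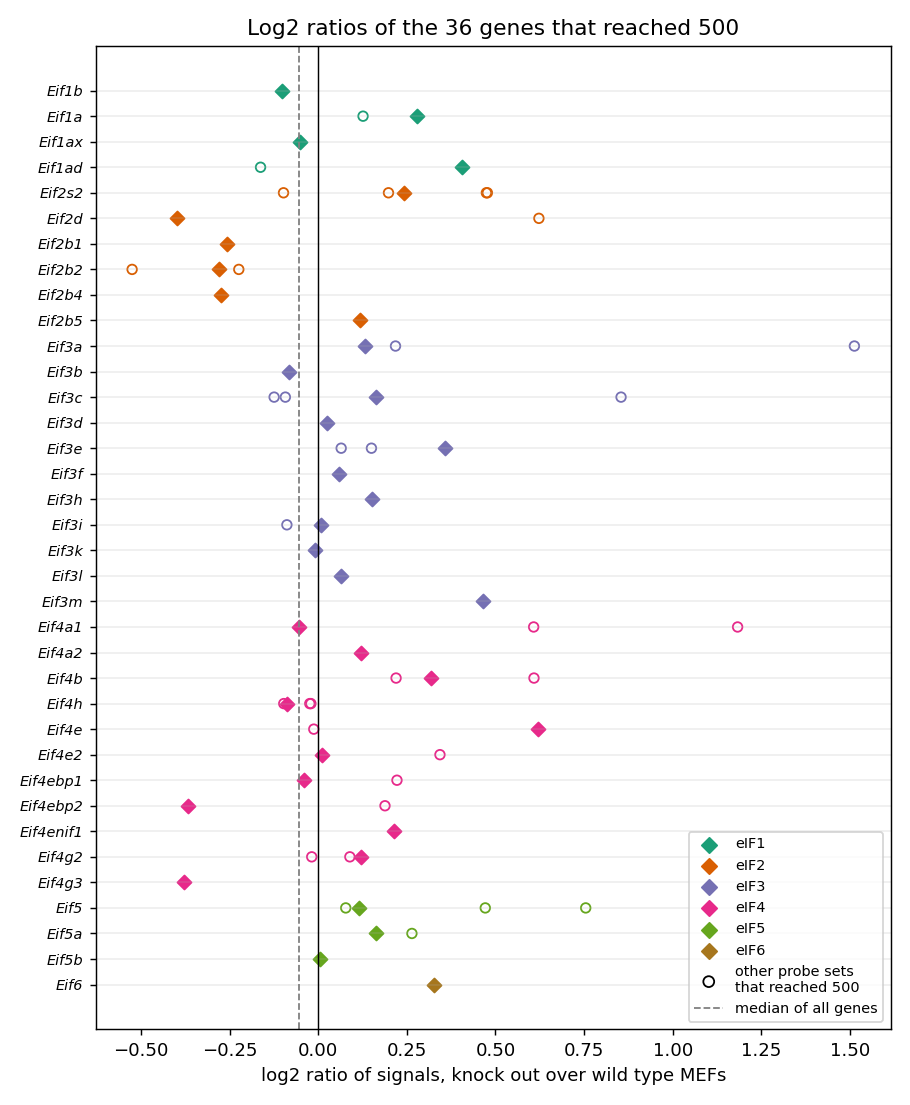
Log2 ratios (knock out over wild type MEFs) for the 36 initiation factor genes that reached 500. Diamonds mark the brightest probe set of each gene, open circles its other probe sets that reached 500, and the dashed line the median of all genes (-0.053). Open circles of Eif3a and Eif4a1 lie beyond 1, while their diamonds lie at 0.13 and -0.056.

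Eif4e, which encodes the cap-binding protein that limits translation of many growth-related mRNAs, had the highest ratio of the 36 genes, with 1293 against 1985 in knock out MEFs (log2 ratio 0.62). It was above 97.7% of all genes that reached 500. It was higher under each scaling, from 0.23 with the spike-ins to 0.65. A dimmer probe set of Eif4e that also reached 500 gave 804 and 797 (-0.013), and the other 2, both under 100 on both arrays, gave 0.086 and -0.023. The higher value therefore rests on 1 of 4 probe sets. Its relatives gave smaller ratios. Eif4e2, whose product binds the cap without eIF4G and represses translation, was 1705 and 1718 (0.0115), and Eif4e3 stayed under 500 (364 and 291, -0.32).

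The proteins that hold eIF4E away from eIF4G gave ratios on both sides of 0. The brightest probe set of Eif4ebp1 gave 4099 and 3988 (-0.0395), the next 1910.5 and 2228 (0.22). Eif4ebp2 was 997 and 773 (-0.37), but its other probe set that reached 500 was 459 and 523 (0.19). Eif4enif1, which encodes the nuclear transporter of eIF4E, was 506 and 586 (0.21). For both binding protein genes the sign depends on the probe set.

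Of the helicase genes, Eif4a1 gave 3 bright probe sets that disagreed. The brightest was 5177 and 4981 (-0.056), the next, with a mean log2 signal that was almost equal, was 4112 and 6265 (0.61), and the last was 2428 and 5513 (1.18). The choice of probe set thus decides whether Eif4a1 is taken as slightly lower or as higher in knock out MEFs, and the mean over the 3 was 0.58. Eif4a2, its close relative, was 3159 and 3436 (0.12). Eif4a3, a helicase of the exon junction complex, had a single usable probe set near background (9.45 and 6.98), and another probe set shared with a second symbol was not used. The helicase cofactor gene Eif4b was 1866 and 2326 (0.32), with all 3 probe sets above 0 (0.22 to 0.61), and Eif4h was 4948 and 4652 (-0.089), with all 4 probe sets that reached 500 just below 0 (-0.097 to -0.021).

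Of the eIF4G genes measured, Eif4g2, which encodes a relative that lacks the eIF4E site, was 8145 and 8861 (0.12). Eif4g3, which encodes the scaffold eIF4GII, was 1600.0 and 1232 (-0.38), lower under each scaling, while its other 3 probe sets, all dim, were above 0 (0.33 to 0.53). Over the 11 genes of the eIF4 group that reached 500 the median log2 ratio was 0.0115, with 6 above 0 and 5 below.

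Eif5, the gene of the GTPase-activating factor, was 2276 and 2464 (log2 ratio 0.11), and all 5 of its probe sets were above 0, up to 0.75. Eif5a, which encodes the hypusine-carrying factor that acts in elongation, was 7645 and 8553 (0.16) and 0.26 on its other probe set. Its relative Eif5a2 was dim on both arrays (179 and 160.1). Eif5b, of the subunit-joining GTPase, was 718 and 719.8 (0.0039), with 0.55 and -0.25 on probe sets under 500. Eif6, of the large subunit anti-association factor, was 1638 and 2053 (0.33), with -0.18 on a dimmer probe set that did not reach 500. The genes of eIF5, eIF5A, eIF5B and eIF6 that reached 500 thus all had ratios above 0 under the deposited scaling and below 0 with the spike-ins. Of all genes, 42.2% were above 0 under the deposited scaling and 5.35% with the spike-ins.

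**Figure D4:**
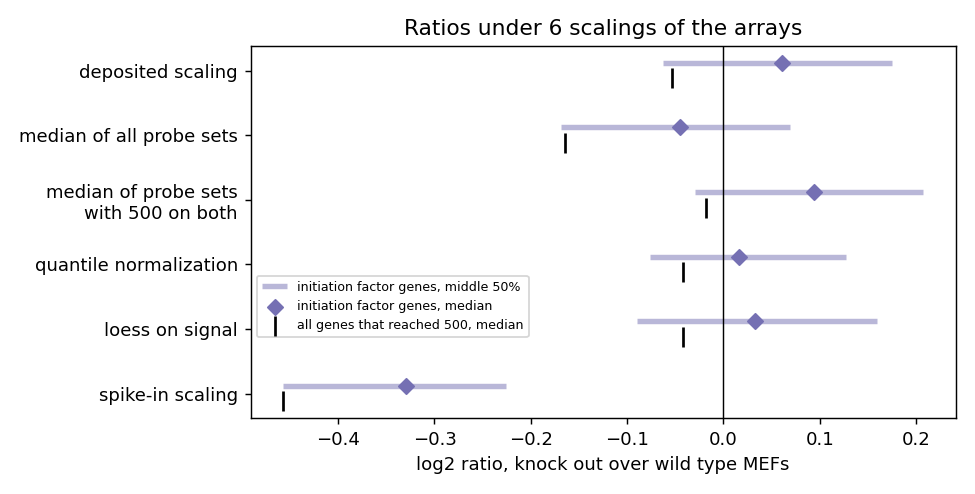
Median (diamonds) and middle 50% (bars) of the log2 ratios of the initiation factor genes that reached 500, and the median of all genes that reached 500 (black ticks), under 6 scalings of the arrays. The median of the initiation factor genes moves from 0.061 to -0.33 with the spike-ins and stays above that of all genes by 0.058 to 0.13. Centring and spike-in scaling shift both medians nearly alike, while quantile normalization and loess gave 0.058 and 0.075.

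Of the 36 genes, 3 were higher under the deposited and the 5 other scalings (Eif3m, Eif4e and Eif1ad, the last with no value under spike-in scaling), 12 were lower under all of them and 21 changed sign with the scaling. The shares of all genes were 9.31% higher, 52.7% lower and 38.0% with a change of sign. The 12 lower genes were Eif1ax, Eif1b, Eif2b1, Eif2b2, Eif2b4, Eif2d, Eif3b, Eif4a1, Eif4ebp1, Eif4ebp2, Eif4g3 and Eif4h, on their brightest probe sets. Spike-in scaling lowers every log2 ratio by 0.39, so it takes most small positive values below 0. The signal of Eif1ad then stays under 500.

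Promoters of the members were read from RefSeq on GRCm38.p6, 250 bases before to 50 after each annotated start, and 32 of the 41 genes matched. Motifs were searched on both strands, and a start sequence on the gene's strand only. The E-box CACGTG, which Myc, Max and USF proteins can bind, was found in 9 of the 32 genes (28.1%), against 12.8% of 4122 genes that reached 500 and 8.09% of all 27025 genes. The ETS motif CCGGAAGT was found in 7 (21.9%), against 10.9% and 4.31%. The YY1 motif AAGATGGC was in 3 (9.38%, against 6.67% and 3.19%) and CCAAT in 12 (37.5%, against 42.8% and 41.1%). No promoter of these 32 genes held TGATGNAA, the C/EBP-ATF motif (2.60% of genes that reached 500 and 4.51% of all), or TGACGTCA, the CRE (3.57% and 2.03%). In 1 of 32, Eif3f, the annotated start was a C followed by 4 pyrimidines, as in TOP mRNAs (3.18% and 3.01%). These are matches of letters and not sites of binding.
E-boxes of 5 genes described above are shown, since this motif was the most frequent relative to genes that reached 500. They are examples from the eIF3 and eIF4 groups, picked with the ratios known, each 1 E-box with 12 bases on either side, 5′ to 3′ on the gene's strand and with the E-box in capitals. All 5 lie before the annotated start.
Eif4e, chr3:138527192-138527221, plus strand: ggacacgtccgtCACGTGggcaggagccgg
Eif4a1, chr11:69672595-69672624, minus strand: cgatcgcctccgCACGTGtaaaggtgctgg
Eif3f, chr7:108934335-108934364, plus strand: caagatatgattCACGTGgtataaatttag
Eif3k, chr7:28981915-28981944, minus strand: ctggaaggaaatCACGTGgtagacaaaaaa
Eif4h, chr5:134639488-134639517, minus strand: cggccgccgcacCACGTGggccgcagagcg
The 8 genes with it that reached 500 had a median of 0.025, with 4 above 0, and the 21 matched genes without it also had a median of 0.025.

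Genes of the steps around initiation were read in the same way. Beside the counts above 0 in these lists stands a share of 42.2% over all genes that reached 500. Over a mean signal of 3000 that share was 63.4%. Of 6 genes of the elongation list that reached 500, 4 were above 0 and the median log2 ratio was 0.18. They included Eef1a1 (8248 and 9784.5, 0.25), which brings tRNA to the ribosome, and Eef1b2 (5446 and 6321, 0.21), its exchange factor. Eef2 (7431 and 8223, 0.15), the translocase, and Eef1d (2707 and 2685, -0.012) were also among them. Of 6 termination and recycling genes 5 were above 0 (median 0.16), among them Abce1 (0.10), Etf1 (0.23), Denr (0.51) and Mcts1 (0.22). Neither list had a gene over 2-fold apart. Named after their values were seen, Eef1e1 (0.60) and Eef2k (-0.65) were over 1.5-fold apart. Both are in the elongation list without being elongation factors, Eef2k being a kinase gene. Hbs1l (-0.45), also named after its value was seen, was the termination and recycling gene below 0.
Of 10 genes of cap and poly(A) partners 4 were above 0 (median -0.13). Pabpc1, the poly(A)-binding protein, was 6083 and 6824 (0.17), Ddx3x, a helicase, was 3733 and 4226 (0.18), and Pabpc4 (0.056) and Paip2 (-0.14) were near level. The kinase genes of eIF4E, named after their values were seen, were lower on their brightest probe sets, Mknk2 at 1741 and 1036 (-0.75) and Mknk1, under 500, at 321 and 215 (-0.58). The other probe sets of both were dim and lay above 0.
Of 7 genes of eIF2 kinases and phosphatase subunits that reached 500, 1 was above 0 (median -0.089), with Ppp1ca (0.044), Ppp1cb (-0.022), Ppp1cc (-0.17) and Ppp1r15b (-0.089). A dimmer probe set of Ppp1cc that also reached 500 gave 851 and 1068 (0.33), so its sign depends on the probe set. The 4 kinase genes of eIF2 itself, also named after their values were seen, were all below 0 on their brightest probe set: Eif2ak1 (573 and 426, -0.43), Eif2ak2 (351 and 198, -0.83), Eif2ak3 (542 and 492, -0.14) and Eif2ak4 (256 and 213, -0.27). Eif2ak2 and Eif2ak4 stayed under 500, and the other probe sets of Eif2ak1 and Eif2ak2 were above 0.
Of the pathway of ATF4, whose mRNA is translated more when eIF2 is phosphorylated, 5 of 10 genes were above 0 (median 0.017). Atf4 was 2964 and 3300.1 (0.16), Asns was at -0.0087, Phgdh at 0.13 and Psat1 at 0.21. A second bright probe set of Atf4 gave 2492 and 2042 (-0.29), so its sign depends on the probe set. The other probe set of Asns gave -0.25 and that of Psat1 0.084. Those of Phgdh ran from -0.14 to 0.0099. Of 6 mTORC1 pathway genes 3 were above 0 (median 0.049). Rps6, of a small subunit ribosomal protein that mTORC1 signals through, was the only gene of these 6 lists over 2-fold apart (261 and 591, 1.18). It passed the minimum of 500 on the knock out array only, where it was higher. Its other probe set gave 37.2 and 37.9. Rheb (0.12), Akt1s1 (0.45) and Tsc2 (-0.017) were within 2-fold.

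**Figure D5:**
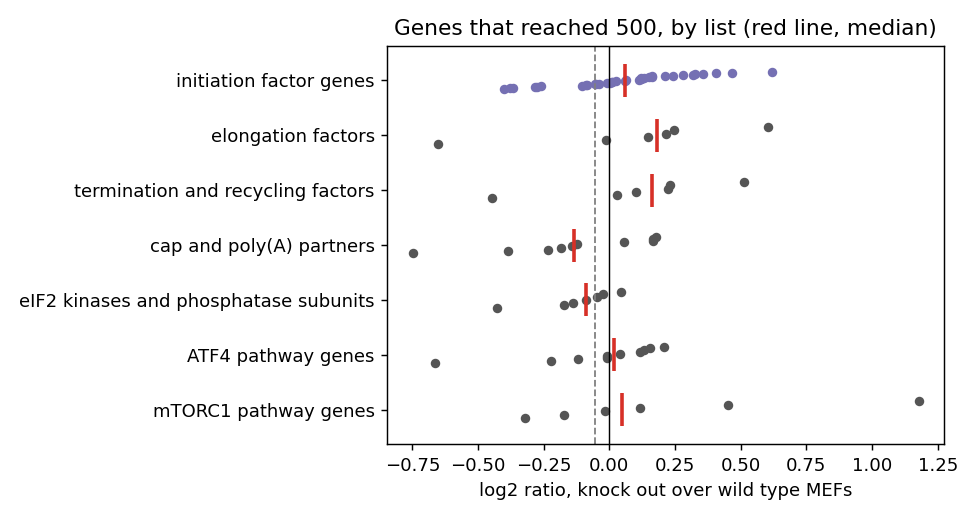
Log2 ratios (knock out over wild type MEFs) for the genes that reached 500 in the initiation factor set and 6 lists of neighbouring steps. Each point is a gene, red lines are medians and the dashed line is the median of all genes (-0.053). Medians run from -0.13 for cap and poly(A) partners to 0.18 for the list labelled elongation factors. Rps6 at 1.18 is the only point past 2-fold and reached 500 on the knock out array only.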

How the data were processed

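The authors hybridized cRNA from total RNA to Affymetrix arrays, 1 per genotype, and deposited linear signal intensity values from MAS5, with every array brought to the same target intensity. The probe sets are those of a mouse array, and 45037 remained without the controls. Signals under 100 (57.9% of probe sets for wild type, 57.1% for knock out MEFs) were taken as low. Gene names came from the platform annotation, with 34945 probe sets of 1 symbol, 932 of several and 9160 unnamed here. For each gene the probe set with the highest mean log2 signal gave the log2 of the knock out signal over that of the wild type. Genes with at least 500 on 1 array were counted, with fold thresholds of 2 and 1.5. No test was run. The members and lists were chosen with earlier results of these data known, and the promoter motifs after the ratios were seen. An NRF1 motif and a longer YY1 motif, the latter in no member, were also searched and are not reported.
Named were all members, Pa2g4 and up to 4 genes per list, those over 2-fold apart and then the brightest. Other genes are said to be named after their values were seen. Alternatives were 5 other scalings, other minimum signals, 50 added to each signal, raising signals to 500, other choices of probe set and a smaller set of members. The steps were tested on simulated data. Tools were statsmodels 0.14.6 for loess (fraction 0.3), matplotlib 3.10.9, pandas 2.3.3 and numpy 2.4.6 under Python 3.11.15.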

Additional observations from a re-analysis of the deposited data

How the results depend on the processing

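The median log2 ratio of the initiation factor genes was 0.061. It became -0.045 when the arrays were centred on their median signals and -0.33 with spike-in scaling. With the spike-ins 2 of 35 genes instead of 23 of 36 were higher in knock out MEFs, against 5.35% and 42.2% of all genes. Both scalings shift all ratios of an array alike. No gene was over 2-fold apart, except 1 with the mean over all probe sets (Eif3h at -2.16, through 2 probe sets near background), and 1 was over 1.5-fold apart (Eif4e). The count above the median of all genes stayed within 1.5 times of 26, and so did the count of higher genes of 23 except with the spike-ins. Scalings that shift all ratios alike could hardly change the count above the median. Of 357 log2 ratios of single genes computed in other ways 6 moved by over 1.5-fold and 45 changed sign, 20 of them with the spike-ins. Of the 6, those of Eif3d, Eif3h, Eif3l and Eif4g3 and 1 of Eif4a1 came with the mean over all probe sets, and the other, also of Eif4a1, with the mean over probe sets that reached 500. No paired analysis was possible because each genotype has a single array. Genes near 500 or below are limited by low signal.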
